A study of Rattus norvegicus with 63 samples.

Results

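The livers described here came from the 18 untreated control animals among the 63 rats of the series, all of which had received only the liquid in which test compounds were dosed. Of these, 6 animals had been given corn oil and 12 methylcellulose, so that the comparison is between vehicles and between sets of control animals, with no compound involved. All were male Wistar Hanover rats, aged 8 to 10 weeks at the start, that received the vehicle by gastric gavage. The labels divide them into 6 control sets of 3 animals. Corn oil set 3 (animals 4, 5 and 6) was dosed for 7 days and corn oil set 4 (animals 1, 2 and 3) for 14 days, whereas methylcellulose sets 6 (animals 1 to 3), 1 (4 to 6), 5 (7 to 9) and 2 (10 to 12) were all dosed for 14 days. Within corn oil, set and dosing time therefore cannot be told apart, and a vehicle difference that includes set 3 also includes a shorter dosing time. The labels write methylcellulose, while the methods of the study also speak of carboxymethyl cellulose, and which of these the control animals received was not settled. Per the design text of the series, the 3 animals of a group had been picked from a larger dose group after histopathology. The labels name the animals individually, but nothing says whether the sets were dosed, lysed or printed together.

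Protein lysates of whole liver were measured on reverse-phase protein arrays, on which each lysate is printed as spots and detected with an antibody to 1 protein or protein modification. The unit is the relative fluorescence intensity (RFI), deposited for 158 analytes, of which 104 are total proteins and 54 modified forms. With 2 corn oil sets and 3 animals in each set, precision is limited by these numbers. In a whole-liver lysate, fewer cells of a type and less protein per cell cannot be told apart. Hepatocyte proteins were measured in all control animals, with HNF4A, a hepatocyte transcription factor, between 1.41 and 2.93 RFI. The defining markers of bile duct cells, endothelium and leukocytes that had been listed (such as KRT19, PECAM1 and PTPRC) were not among the 158 analytes, so their share was not tested. Of 2844 control values, 8 were at or below 0, in GLUL, ACTB, CYP2B6_3 and CYP2E1_2, and these were treated as missing.

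Corn oil is a digestible fat, whereas methylcellulose is a cellulose ether that passes the gut largely undigested. The liver takes up absorbed nutrients and adjusts its growth and energy signalling to them: the kinase MTOR drives protein synthesis through the S6 kinases, which phosphorylate ribosomal protein S6 (RPS6), while AMP-activated kinase (its catalytic subunit is PRKAA1) is active when energy is short. The liver is also the main site of the cytochromes P450, which oxidise drugs and other foreign compounds. These pathways were among the measured analytes, and the vehicles of a toxicology study are the reference against which a change in them is read.

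The whole signal was lower in corn oil livers. The median RFI over the analytes above 0, which is the level of an animal as a whole, ran from 0.441 to 0.548 in the 6 corn oil animals and from 0.505 to 0.891 in the 12 methylcellulose animals. The ranges overlapped, and methylcellulose animal 1 of set 6, at 0.891, was the highest of all. As means of 3 animals on the log2 scale, corn oil sets 3 and 4 stood at -0.95 ± 0.13 and -1.04 ± 0.13 (SD, n = 3 each), below all 4 methylcellulose sets at -0.74 ± 0.076 (set 1), -0.76 ± 0.20 (set 2), -0.85 ± 0.065 (set 5) and -0.54 ± 0.32 (set 6). The difference between the vehicles was -0.28 on the log2 scale, a ratio of 0.826. With the set as the unit, the exact permutation test over the 15 ways of naming 2 of 6 sets corn oil gave a two-sided p of 0.0667, the smallest this design allows. Leaving out single animals moved the difference between -0.30 and -0.23.

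**Figure D1:**
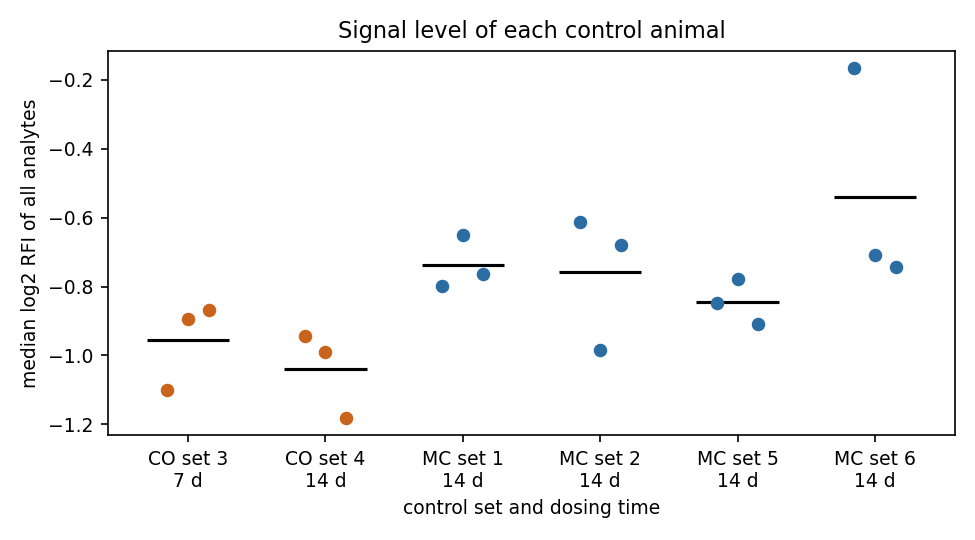
Median log2 RFI over 158 analytes (vertical axis) of each of the 18 control animals, grouped by control set and dosing time (horizontal axis). Points are animals, with corn oil (CO) in orange and methylcellulose (MC) in blue, and black lines are set means; both corn oil set means, -0.95 and -1.04, lie below the 4 methylcellulose set means, while single animals overlap.

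The same direction was seen in most single analytes. Of the 158 analytes, 141 (89.2%) had a lower mean log2 RFI in corn oil, and the median difference over all analytes was -0.22 (-0.17 for set 3 and -0.28 for set 4, each against the 12 methylcellulose animals). Called here means an adjusted p below 0.05 in limma, with the control set as a random block and Benjamini-Hochberg adjustment over the 158 analytes. In this fit 29 analytes (18.4%) were called lower and 0 (0%) higher in corn oil. All 29 were lower in both corn oil sets, and in 16 of them all 6 corn oil animals lay below the methylcellulose median. These counts describe the same animals that gave the calls and are no separate support for them. For 0 of 158 analytes (0%) did the 6 corn oil animals all lie below, or all above, the 12 methylcellulose animals.

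The number of calls rested on how sets and levels were treated. The correlation of animals within a set, estimated for the block over all analytes, was -0.14 (-0.034 after centring), and a negative value narrows the errors of a vehicle difference. With the 18 animals as independent samples, a single analyte (0.633%), RPS6_2, was called, and 46 analytes had an unadjusted p below 0.05, against 76 with the block. With the 6 set means as the unit, limma called 0 analytes. When each animal was first centred on its own median, 46 analytes (29.1%) were lower in corn oil, the median difference became 0.06, and limma with the block called 0 analytes (0%), with 23 at an unadjusted p below 0.05. The analyte differences below are therefore given as measured and, for part of the analytes, again after centring, which removes the shift common to an animal's analytes.

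**Figure D2:**
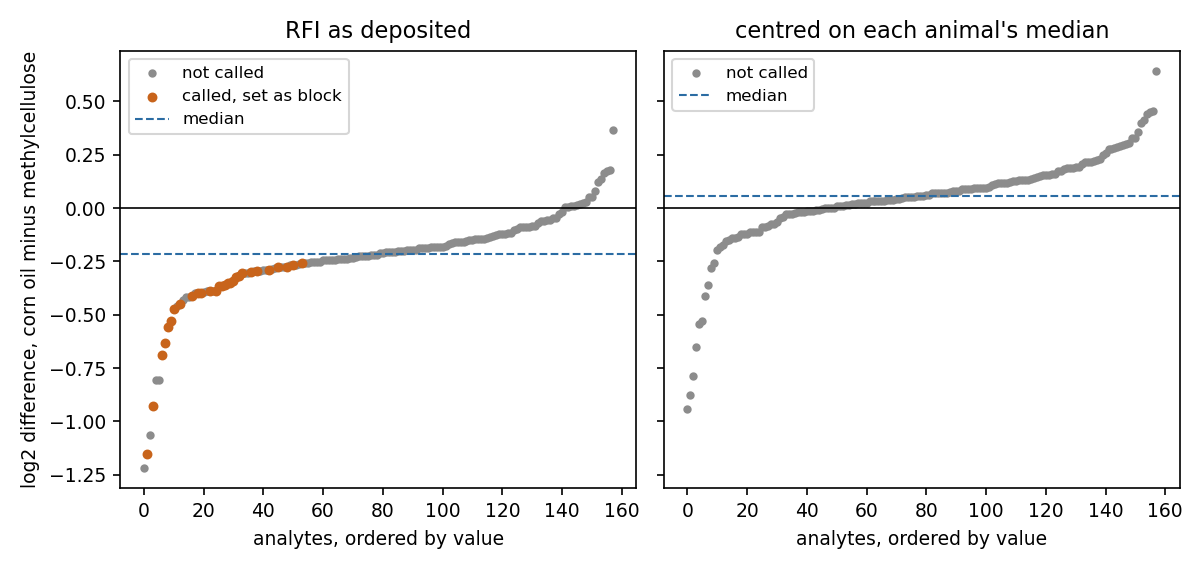
Difference in log2 RFI, corn oil minus methylcellulose (vertical axis), of the 158 analytes ordered by value (horizontal axis), from RFI as deposited (left) and after centring each animal on its median (right). Orange points are the 29 analytes called by limma with the control set as a block; the dashed median lies at -0.22 on the left and 0.06 on the right, where 0 analytes were called.

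Forms of RPS6, whose phosphorylation is a readout of the MTOR pathway, had the 2 largest differences of the 158 analytes. RPS6 was measured with 2 antibodies against the total protein, numbered in the deposited names, and with 1 against the form phosphorylated at S235/S236. RPS6_2 ran from 0.0775 to 0.214 RFI with a median of 0.110 in corn oil animals, and from 0.162 to 0.481 with a median of 0.269 in methylcellulose animals. In corn oil, animals 5 and 6 of set 3 were the highest, at 0.214 and 0.184, and only they reached into the methylcellulose range. On the log2 scale RPS6_2 fell by 1.15, with an SE of 0.20 and, in limma, an adjusted p of 0.00234 with the block and 0.0121 without it. It was lower in set 3 (-0.86) and in set 4 (-1.45). After centring the difference was -0.88 and was not called (adjusted p 0.139), and without the block and without corn oil animal 3 the adjusted p was 0.0528. RPS6_2 belonged to the fifth of the analytes with the dimmest signal.

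The other RPS6 antibody had a lower mean in corn oil too but was not called. RPS6_1 ran from 3.97 to 36.7 RFI (median 7.24) in corn oil and from 8.45 to 23.3 (median 15.7) in methylcellulose animals. Corn oil animal 6 of set 3, at 36.7, was the highest of all 18, while the other 5 corn oil animals lay below the median of the methylcellulose animals. The log2 difference was -0.80 (SE 0.29, adjusted p 0.0557, limma with the block), -0.30 for set 3 and -1.31 for set 4. Without animal 6 it was -1.24 and called (adjusted p 0.000779, limma with the block). That fit called 79 of the 158 analytes lower. Animal 6 was singled out by its own high value, so this call is no separate support for a lower RPS6_1.

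The set means of phosphorylated RPS6 spanned 2.68 on the log2 scale within methylcellulose, more than the vehicle difference of -1.22. RPS6_P-S235/S236 was 1.57, 1.18 and 4.21 RFI in the animals of corn oil set 3 and 3.71, 7.26 and 0.871 in those of set 4. Methylcellulose set 6 had 3.66, 1.43 and 0.945, within the corn oil range, while the 9 animals of methylcellulose sets 1, 2 and 5 had 4.52 to 12.7. Only corn oil animal 2, at 7.26, lay inside that last range. That difference was not called (SE 0.49, adjusted p 0.0738, limma with the block) and was -0.94 after centring. Without methylcellulose set 6 it was -1.79 and called (adjusted p 0.00389), in a fit that called 25 of the 158 analytes lower. Set 6 is the methylcellulose set with low values of this analyte, so leaving it out widens the difference and the call is no separate support. Among the 4 methylcellulose sets this analyte had the largest F of the 158, 6.49 (p 0.00394, adjusted p 0.622 in limma), and it was called when the spread was estimated from all 63 animals (F 7.81, adjusted p 0.0402).

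Total MTOR and PRKAA1 were both called lower in corn oil. MTOR ran from 0.479 to 0.731 RFI (median 0.561) in corn oil and from 0.601 to 0.964 (median 0.799) in methylcellulose animals. All 6 corn oil animals lay below the methylcellulose median, and 4 of them below every methylcellulose animal. On the log2 scale MTOR fell by 0.40, with an SE of 0.091 and, in limma, an adjusted p of 0.0223 with the block and 0.082 without it, and the centred difference was -0.12. Its forms phosphorylated at S2448 and S2481 differed by -0.14 each and were not called (adjusted p 0.297 and 0.242, limma with the block). PRKAA1 ran from 0.160 to 0.407 RFI (median 0.292) in corn oil and from 0.351 to 0.767 (median 0.434) in methylcellulose animals, with 4 corn oil animals below all methylcellulose animals. PRKAA1 fell by 0.63 (SE 0.15, adjusted p 0.0252 in limma with the block, 0.082 without it). The size rested in part on corn oil animal 3, at 0.160, without which the difference was -0.45 (adjusted p 0.088). After centring it was -0.36 with 0 calls on the 18 animals, and it was the only analyte called when all 63 animals were centred and fitted together (adjusted p 0.0263). The activated form, PRKAA1_P-T172, differed by -0.30 (adjusted p 0.155, limma with the block) and by -0.06 without animal 3, which at 0.704 RFI was the lowest of the 18.

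**Figure D3:**
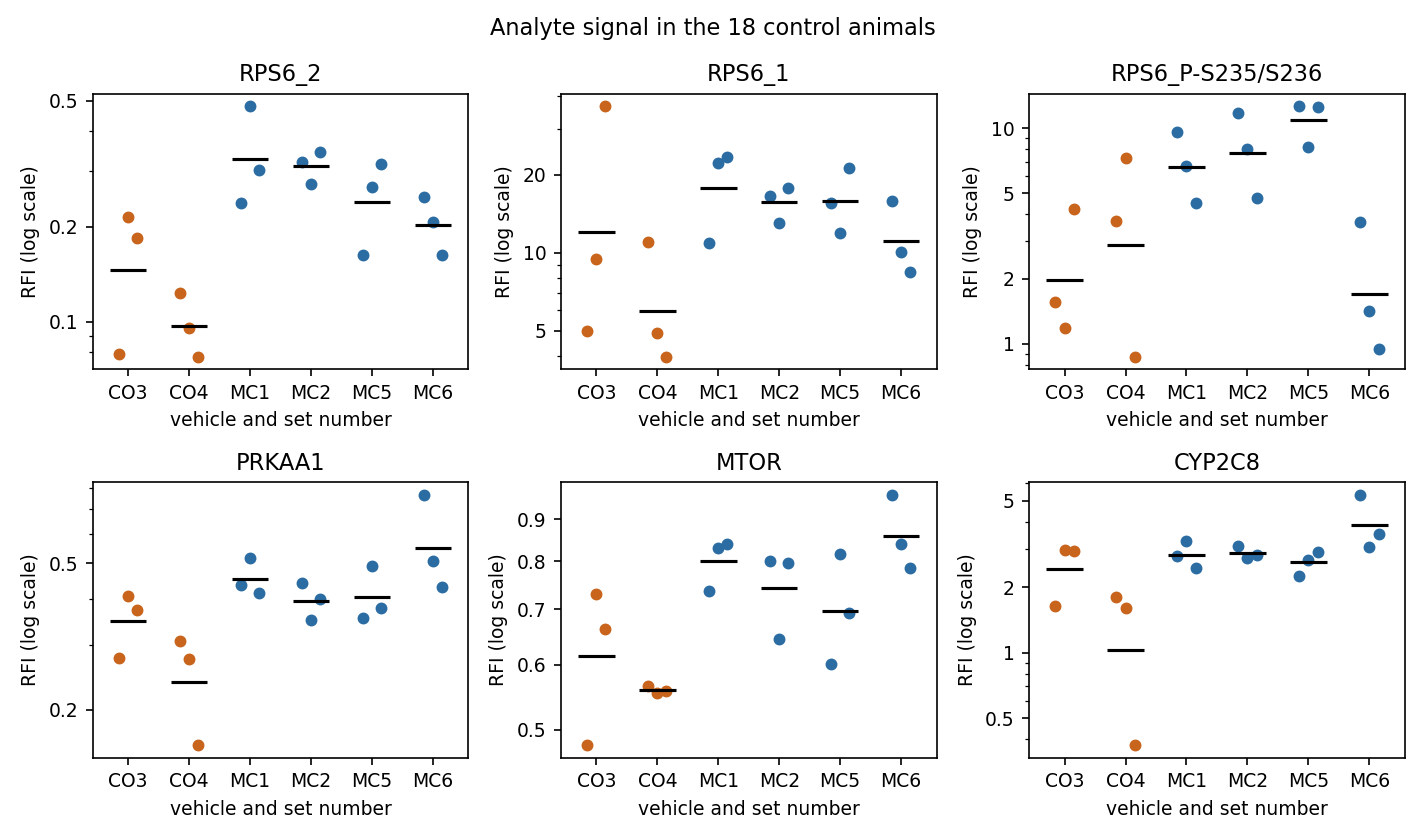
RFI on log axes (vertical) of 6 analytes in the 18 control animals, by vehicle and control set (horizontal; CO corn oil, orange; MC methylcellulose, blue). Points are animals and black lines are geometric set means; RPS6_P-S235/S236 is low in both corn oil sets and in MC set 6, while RPS6_2, PRKAA1 and MTOR have both corn oil set means below all 4 methylcellulose set means.

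Of the 23 analytes of the insulin, AMPK and MTOR list, 3 (RPS6_2, MTOR and PRKAA1) were called lower, 0 higher, and 21 had a negative difference, against 18.4% called lower and 89.2% negative of all analytes. The median of the list was -0.23, near the -0.22 of all 158 analytes, and 0.05 after centring against 0.06 for all. IGFBP1, a secreted binding protein of insulin-like growth factors whose synthesis is restrained by insulin, differed by 0.02 (adjusted p 0.957, limma with the block). This mean held 5 corn oil animals at 0.123 to 0.211 RFI and animal 3 at 0.714, against 0.146 to 0.273 in methylcellulose animals, and without animal 3 the difference was -0.34. RPS6KB1_P-T389, the form of S6 kinase that MTOR activates, had the highest difference of all 158 analytes, 0.37 (adjusted p 0.302, limma with the block), and this too came with animal 3, at 6.14 RFI against 0.612 to 0.858 in the other corn oil animals and 0.634 to 1.19 in methylcellulose animals. Without animal 3 its difference was -0.14.

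The cytochromes P450 had a lower mean in corn oil in 14 of 15 analytes, and 6 of the 15 were called, against 89.2% and 18.4% of all analytes. Their names follow human symbols. CYP2B6, CYP2C8, CYP2D6, CYP3A4, CYP3A5 and CYP4F2 had no match among rat gene symbols, and which rat enzyme such an antibody detects was not stated. The median difference was -0.29, against -0.22 over all analytes, and after centring it was -0.01 with 9 of 15 below 0. The largest was CYP2C8, of a family that oxidises fatty acids and many drugs. CYP2C8 ran from 0.374 to 2.98 RFI (median 1.73) in corn oil and from 2.26 to 5.34 (median 2.86) in methylcellulose animals. Set 4, with 1.81, 1.60 and 0.374, lay below all methylcellulose animals, whereas animals 5 and 6 of set 3, with 2.98 and 2.93, were within their range. The log2 difference of CYP2C8 was -0.93 (SE 0.27, adjusted p 0.0321, limma with the block, -0.65 after centring). It fell by 1.55 for set 4 and by 0.31 for set 3, and without animal 3 the difference was -0.48.

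The inducible CYP1A enzymes, which act on planar aromatic compounds, were among the called analytes. CYP1A2_1 was 0.496 to 1.14 RFI (median 1.02) in corn oil and 0.997 to 2.32 (median 1.28) in methylcellulose animals, and all 6 corn oil animals were below the methylcellulose median. It fell by 0.53 (SE 0.15, adjusted p 0.0321 in limma with the block, centred difference -0.26), and the difference without animal 3 was -0.35. The second antibody, CYP1A2_2, differed by -0.21 and was not called (adjusted p 0.0827). CYP1A1_2 fell by 0.34 (centred difference -0.07), and CYP1A1_1 had -0.19 and was not called. The remaining called enzymes were CYP2D6 (-0.35), CYP2B6_1 (-0.35) and CYP2B6_2 (-0.29). After centring, CYP2D6 stood at -0.07, CYP2B6_1 at -0.08 and CYP2B6_2 at -0.01. For CYP2D6 the corn oil range of 8.86 to 13.9 RFI reached above the lowest methylcellulose animal, at 12.1 RFI.

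Enzymes not called were CYP2B6_3 (-0.39), CYP3A4_2 (-0.39), CYP3A4_1 (-0.26), CYP2E1_2 (-0.24), CYP2E1_1 (-0.16), CYP4F2 (-0.16) and CYP3A5 (0.03). Leaving out single animals moved CYP2B6_3 between -0.61 and -0.23, CYP3A4_2 as far as -0.22 (without corn oil animal 4), CYP3A4_1 as far as -0.16 and CYP4F2 as far as -0.099 (both without methylcellulose animal 1). CYP2E1_2 reached -0.04 without corn oil animal 2 and -0.36 without animal 5, and CYP2E1_1 -0.035 and -0.31 without the same animals. CYP3A5, the single enzyme with a positive difference, stood at -0.09 without animal 3, so that its direction turned, as it also did without corn oil animal 2 or methylcellulose animal 6 or 8. Corn oil animal 3 was at or below 0 in CYP2B6_3 and CYP2E1_2 and is missing from both fits. CYP2E1, which oxidises small molecules such as ethanol, is known from hepatocytes near the central vein, as is GLUL, glutamine synthetase. GLUL differed by -0.20 (SE 0.31, adjusted p 0.601, limma with the block), and by -0.40 to -0.04 with single animals left out. It ran from -0.660 to 1.53 RFI in corn oil and from -1.34 to 1.74 in methylcellulose animals, with values at or below 0 in corn oil animal 3 and methylcellulose animals 2 and 10. HNF4A, which controls many hepatocyte genes, had -0.27 (adjusted p 0.0534, limma with the block), and its centred difference was 0.01.

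Among other liver proteins, 9 were grouped after their values had been seen, and 3 of these 9 were called lower, against 18.4% of all analytes. The median difference of the 9 was -0.26, against -0.22 over all analytes, and 0.02 after centring against 0.06. PPARA_1 and PPARA_3 are antibodies against the nuclear receptor that switches on fatty acid oxidation. They differed by -0.26 and -0.27, while the third antibody against it, PPARA_2, differed by -0.08. After centring, PPARA_1 and PPARA_3 stood at 0.016 and 0.0077, on the other side of 0. PON3, a paraoxonase, fell by 0.37, and PON1 differed by -0.40 with an adjusted p of 0.0517 in limma with the block. The electron donor of the cytochromes P450, POR, had -0.30 (adjusted p 0.106, limma with the block) and -0.12 without animal 3. UGT1A1, which conjugates bilirubin, had 0.05 and, without animal 3, -0.15.

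Regulators of cell death were called lower in 4 of 7 analytes (18.4% of all analytes), with a list median of -0.28 against -0.22 over all analytes. BCL2L1, which protects cells from apoptosis, fell by 0.45, and the difference was -0.25 without animal 3, at 0.427 RFI the lowest of the 18. BAX, which promotes apoptosis, fell by 0.28. BAX had the least spread among animals of a set of all analytes, an SD of 0.14 on the log2 scale, and its centred difference was 3e-04. AVEN, an apoptosis inhibitor, fell by 0.39. The centred differences of BCL2L1 and AVEN were -0.17 and -0.11. BIK, another promoter of apoptosis that stood outside the list, fell by 0.40 and ran from 1.10 to 1.76 RFI in corn oil against 1.29 to 2.49 in methylcellulose animals.

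In the MAP kinase cascades 5 of 24 analytes were called lower, near the 18.4% of all analytes, and 0 higher, with a median of -0.20 (all analytes -0.22, centred 0.08 against 0.06). ELK1, a transcription factor phosphorylated by MAP kinases, ran from 0.720 to 3.51 RFI (median 2.37) in corn oil and from 2.43 to 5.45 (median 3.50) in methylcellulose animals. It fell by 0.69 (SE 0.21, adjusted p 0.0324, limma with the block; centred difference -0.41), and the difference without animal 3 was -0.36. RPS6KA1_P-S380, an activated form of a kinase downstream of MAP kinases, fell by 0.41, and its total form RPS6KA1 by 0.36. MAP3K7_P-S412, a modified kinase near the top of the cascades, fell by 0.31. After centring, RPS6KA1_P-S380, RPS6KA1 and MAP3K7_P-S412 stood at -0.13, -0.08 and -0.03. PPP2CB_P-Y307, a phosphorylated catalytic subunit of protein phosphatase 2A that was in no list, fell by 0.47 and ran from 0.622 to 1.31 RFI in corn oil against 0.928 to 2.14 in methylcellulose animals.

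The remaining lists gave few calls, set against the 18.4% of all analytes that were called. Growth factor receptors and adapters had 2 of 12, both PTK2, the focal adhesion kinase, in its total form (-0.32, and -0.20 without animal 3) and phosphorylated at Y576/Y577 (-0.30). Beta-catenin and adhesion proteins had 1 of 9, the cadherin CDH2 (-0.39), and chromatin proteins 1 of 11, the deacetylase HDAC2 (-0.30). After centring, total PTK2 stood at -0.04, its phosphorylated form at -0.02, CDH2 at -0.11 and HDAC2 at -0.02. STAT and NF-kB signalling had 0 of 13 and the cell cycle 0 of 15, with medians of -0.22 and -0.21. In the cell cycle list all 15 analytes had a negative difference as measured, and 1 of 15 after centring, against 89.2% and 29.1% of all analytes. Called but in no list were EIF2AK3, a sensor of stress in the endoplasmic reticulum (-0.27), and ATMIN_P-S/T, a cofactor of the DNA damage kinase ATM (-0.32). The stress and heat shock list had 0 measured analytes. The housekeeping proteins had 0 of 3 called. These were GAPDH (0.01), GLB1 (-0.21) and ACTB, which had the largest spread among animals of a set of all analytes, an SD of 1.36 on the log2 scale, and was at or below 0 in 3 methylcellulose animals.

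Modified forms were also read against the total protein of the same symbol, a ratio within an animal that does not depend on its overall level. Of 49 such ratios, limma called 0 with or without the block, and 9 had an unadjusted p below 0.05 without it. The smallest adjusted p was 0.134 with the block and 0.208 without it. MTOR_P-S2481 over MTOR differed by 0.26 (SE 0.10) on the log2 scale, with a higher mean in corn oil, and was not called. RPS6_P-S235/S236 differed by -0.41 (SE 0.54) over RPS6_1 and by -0.06 (SE 0.55) over RPS6_2, and neither ratio was called. These modified and total forms were measured with different antibodies, so that a ratio shows unequal change only.

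The vehicle difference was set against the spread of sets given the same vehicle. The median absolute log2 difference over analytes was 0.119 to 0.388 for the 8 pairs of a corn oil with a methylcellulose set (median 0.266) and 0.0808 to 0.207 for the 7 pairs of sets of 1 vehicle (median 0.145). The closest pair of different vehicles was corn oil set 3 with methylcellulose set 2 (0.119), and the farthest was corn oil set 4 with methylcellulose set 6 (0.388). Of the same-vehicle pairs, methylcellulose sets 5 and 6 were the farthest apart (0.207) and sets 2 and 5 the closest (0.0808), and the 2 corn oil sets differed by 0.162. After centring, the same measure was 0.0914 to 0.203 (median 0.134) between vehicles and 0.0756 to 0.160 (median 0.115) within a vehicle, so that the 2 kinds of pair overlapped for most of their range. The pairs share sets and carry no test.

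**Figure D4:**
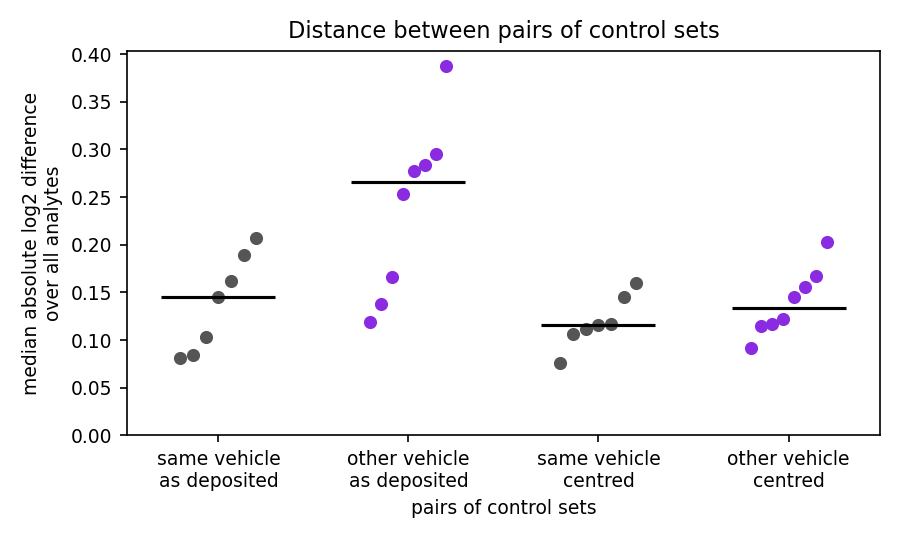
Median absolute log2 difference over 158 analytes (vertical axis, from 0) for the 7 pairs of control sets of the same vehicle and the 8 pairs of different vehicles (horizontal axis), as deposited and after centring. Points are pairs and black lines medians; the medians are 0.145 and 0.266 as deposited, and 0.115 and 0.134 after centring.

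The spread of sets within a vehicle was compared with that of animals within a set. The ratio of the mean square between sets to that within sets had a median of 0.587 over analytes (SE 0.441 by leaving out animals), and 42 analytes (26.6%) had a ratio above 1. The median ratio was 0.931 after centring and 0.950 without methylcellulose animal 3. A ratio near 1 is that of sets with no spread beyond that of their animals, and 1 was within the error. The F test among the 4 methylcellulose sets gave 0 calls of 158 (0%) by limma, with 3 analytes at an unadjusted p below 0.05 and a smallest adjusted p of 0.622. After RPS6_P-S235/S236, the largest F values were those of CYP3A4_2 (3.93), CYP2E1_1 (3.63), HDAC6 (2.83) and GLUL (2.26). CYP3A4_2 was 1.94, 2.60 and 1.89 RFI in set 6 and 0.881 to 1.60 in the other 9 methylcellulose animals, so that set 6 stood above the rest. CYP2E1_1 was likewise 0.567 to 0.756 in set 6 and 0.350 to 0.579 in the others, with an overlap.

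Corn oil set 3 minus set 4, which is also 7 against 14 days, gave 0 calls of 158 (0%) by limma, with 9 at an unadjusted p below 0.05 and a smallest adjusted p of 0.704. Among the largest differences relative to their error were those of CYP2C8 (1.24, SE 0.42), ELK1 (0.97, SE 0.35), POR (0.64, SE 0.25) and CYP2E1_1 (0.56, SE 0.23), all higher in set 3. For CYP2C8, ELK1 and POR, animal 3 of set 4 was the lowest corn oil animal, at 0.374, 0.720 and 6.75 RFI. The other corn oil animals had at least 1.60, 2.12 and 9.46 RFI. The set differences of CYP2C8, ELK1 and POR therefore rested in part on animal 3. In CYP2E1_1 the lowest was animal 2 of set 4, at 0.296 RFI. When set 4 alone, which matches the methylcellulose sets in time, was compared with the 12 methylcellulose animals, 63 analytes were lower and 2 higher in corn oil by limma with the block, the 2 being APC (0.49) and RPS6KB1_P-T389 (0.87), the latter with animal 3 far above the rest. Without the block there were 8 calls, all lower, and 0 when animal 3 was also left out. Set 3 alone gave 0 calls with and without the block. Its differences were negative in all 29 analytes called for the whole, a selection that included set 3.

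The spread among animals of a set, as the pooled SD on the log2 scale, had a median of 0.28 over analytes. It was smallest for BAX (0.14), the MAP kinase kinase MAP2K2 (0.16) and the histone mark HIST1H3A_P-S28 (0.16). After ACTB it was largest for total histone HIST1H3A (1.21), RPS6_P-S235/S236 (0.93), RPS6KB1_P-T389 (0.79), RPS6_1 (0.77), STAT5A_P-Y694 (0.75) and GLUL (0.73). RPS6_P-S235/S236, which had the largest vehicle difference, was thus also among the most variable between animals of a set.

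2 animals stood apart. Methylcellulose animal 1 of set 6 was the highest of the 18 in 115 analytes (72.8%), while its profile correlated with the other animals as theirs did (median r 0.977). Corn oil animal 3 of set 4 had a median correlation of 0.913 with the other control animals over the 158 analytes, against 0.964 to 0.983 for the other 17. It was the lowest of the 18 in 65 analytes and the highest in 13, together 49.4% of the analytes. Among all 63 animals its best correlation with any other was 0.934, and the lowest such value of the other 62 was 0.948. The 3 values at or below 0 in corn oil livers, of CYP2B6_3, CYP2E1_2 and GLUL, were all its own.

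The analytes in which animal 3 was highest included some growth and cell cycle signals, while others of this kind were the lowest of the 18 controls in it. Among these lowest were MAPK3_P-T202/Y204 (1.03 RFI), MYC (0.271), CCNA2 (2.07), AURKB (0.642) and EGFR (0.105). RPS6KB1_P-T389 was 6.14 RFI against at most 1.58 in the other 62 rats, treated animals included. CCND1, a cyclin that drives entry into the cell cycle, was 7.74 against at most 5.15, the kinase MAPK3 3.38 against at most 2.09, and CYB5A, a cytochrome that donates electrons, 6.96 against at most 4.77. IGFBP1 was 0.714 against at most 0.451. CYP2C8 (0.374) and ELK1 (0.720) were the lowest of all 63 animals. The phosphorylated target of S6 kinase, RPS6_P-S235/S236, was the lowest of the 18 controls in the same animal, at 0.871 RFI, while the kinase form RPS6KB1_P-T389 was the highest.

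**Figure D5:**
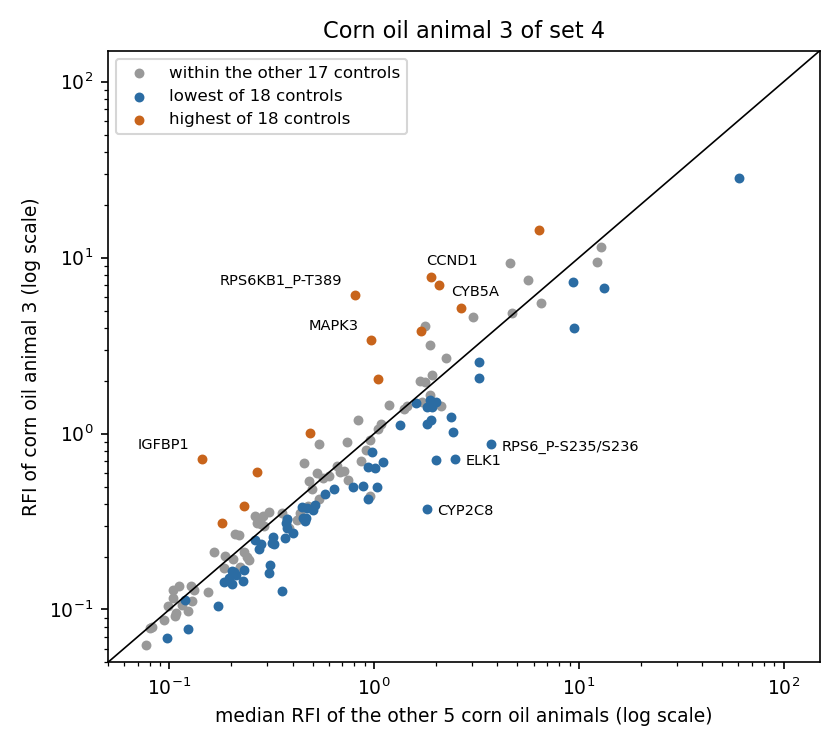
RFI of corn oil animal 3 (vertical axis) against the median RFI of the other 5 corn oil animals (horizontal axis), both on log axes, for the 155 analytes above 0 in this animal. The line marks equal values; 13 analytes (orange) were the highest and 63 drawn analytes (blue) the lowest of the 18 controls, and the 3 analytes at or below 0 are not drawn.

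Without animal 3 the median difference over all analytes was -0.19 in place of -0.22, and limma with the block called 1 analyte, RPS6_2, in place of 29. The count was also 1 without either of corn oil animals 1 and 2, without corn oil animal 4, without methylcellulose animal 3 or without methylcellulose animal 5, and RPS6_2 was the analyte called each time. It was 3 without methylcellulose animal 10 and 7 without animal 8. It rose to 57 without corn oil animal 5, to 79 without corn oil animal 6 and to 49 without methylcellulose animal 11. Of whole methylcellulose sets, leaving out set 1, 2 or 5 gave 1, 8 and 3 calls, and leaving out set 6 gave 25. RPS6_2 was called in 32 of 40 alternative fits, PRKAA1 in 23 of 41 and MTOR in 22 of 41, and all 3 kept a negative difference in each of them. These fits share the same control animals and most keep the block, so the tally is no separate support.

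The rats that received compounds in the same vehicles allowed the direction to be read in other animals, with compound and vehicle not separable. The 3 compounds dosed in corn oil had mean RPS6_2 values of 0.127, 0.142 and 0.165 RFI as lowest, median and highest, and the 12 dosed in methylcellulose ran from 0.151 to 0.462 with a median of 0.215. The log2 difference was -0.65 (exact two-sided permutation p 0.0571 over 455 assignments of 15 compounds, 0.228 adjusted over 4 measures). The other measures were PRKAA1 (-0.14, exact permutation p 0.259), the animal median (-0.07, exact permutation p 0.301) and MTOR (-7e-04, exact permutation p 0.991), with adjusted values of 0.401, 0.401 and 0.991.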

How the data were processed

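Liver lysates of 63 rats were profiled on ZeptoMARK reverse-phase arrays, and 18 vehicle controls are described here. The authors deposited for each animal an RFI per analyte, a linear intensity. According to the methods, local background was subtracted from each spot, values were normalized across the array and replicate spots were combined as a weighted mean. Whether the RFI was also corrected for the secondary antibody alone was not stated. The authors also deposited a matrix of log2 ratios to the control median, which served only as an alternative for the spread of sets. 0 columns lacked a sample.

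RFI at or below 0 was set to missing and the rest log2 transformed, with no scaling. Groups, sets and dosing times came from the labels. Vehicles were compared with limma 3.58.1 (R 4.3.3) with the control set as a random block (duplicateCorrelation), and sets with a limma model of 6 set means over the 18 animals. Tests were two-sided, with Benjamini-Hochberg adjustment over 158 analytes. P-values of limma rest on the spread between these animals, or between set means where those were the unit. Those of the permutation tests rest on set means or on compound means. No pair of animals had identical values. The fit without the block and the F test were checked on simulated animals. These were drawn independently, with no set effect and with planted differences larger than any vehicle difference of the main fit. The fit with the block had no such check. Named analytes are the 10 with the largest called fall (MTOR and BIK tied for the last place to 4 decimals), all cytochromes P450, GLUL, RPS6_P-S235/S236, PRKAA1, IGFBP1 and HNF4A, and for sets the 5 with the largest F or absolute t. Other names were chosen after their values were seen, and some analytes that the rule covers are not reported here. The members and lists were chosen with earlier results of these data known. Of 101 gene symbols, 92 matched rat RefSeq symbols. Alternatives covered the block, the unit, the animals, the dosing time, scaling, dim analytes (the lowest 20%), an offset of 0.1 and the shrinkage.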

Additional observations from a re-analysis of the deposited data

Results flagged for a closer look

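In 4 of the named analytes the animal farthest from the others among the 6 corn oil animals was animal 3 of set 4, by the gap to its nearest neighbour as a share of the whole range on the log2 scale. The share was 0.709 for CYP1A2_1, 0.699 for CYP2C8, 0.694 for IGFBP1 and 0.683 for ELK1, each above Dixon's critical value for 6 samples. Over all 158 analytes 18 (11.4%) passed it, 14 of them through animal 3, while chance passes about 1 in 20 groups.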

How the results depend on the processing

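The number of analytes called between vehicles was 29, and it was 21 with log2(RFI + 0.1), 24 with all 63 animals in the fit, 25 without methylcellulose set 6 and 31 with trended, robust shrinkage. It was 1 without the block, 0 with set means as the unit, 65 for corn oil set 4 alone, 0 for set 3 alone, 1, 8 and 3 without methylcellulose set 1, 2 or 5, 0 after centring, 1 after quantile normalization and 15 without dim analytes. Leaving out single animals gave 1 to 79 calls. With the replicate number as a block, 1 analyte was called, but the numbers did not pair the samples: same-numbered animals had deviations correlated between -0.17 and 0.11, and 0 of 6 correlated best with their own number. Of the settings chosen after seeing the data, the fit without the block gave 0 calls after centring, 0 without corn oil animal 3, 1 without methylcellulose animal 1, 8 for set 4 alone, 0 for set 4 alone without animal 3 and 0 for set 3 alone, whereas the block without both animals that stood apart gave 15 and all 63 animals centred gave 1. Among the analytes called, the difference changed sign after centring, with or without the block or with all 63 animals, for BAX (3e-04), EIF2AK3 (0.0019), PPARA_1 (0.016) and PPARA_3 (0.0077), and after quantile normalization for CYP2D6 (0.066) and PPARA_1 (6e-04). The methylcellulose sets gave 1 call in place of 0 with all 63 animals, and 0 in the other alternatives run, as did the corn oil sets. The level difference ran from -0.30 to -0.23 over single animals left out, and was -0.32 for set 4 alone (exact permutation p 0.2, the smallest possible there). The ratio of set to animal mean squares was 0.931 after centring and 0.528 to 0.950 over animals left out. The cause of these changes was not tested.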
